A study of Mus musculus with 12 samples.

Results

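The small leucine-rich proteoglycans are a family of secreted matrix proteins, and 9 of their genes (Dcn, Lum, Bgn, Fmod, Ogn, Omd, Prelp, Aspn and Podn) were followed here through the stroma of the mouse gut. The genes were chosen by name from the 32052 genes in the deposited tables, and all 9 were among the 16757 genes that passed the filter on low counts. RNA sequencing of total RNA covered 12 libraries in 4 groups of 3. The groups were stromal cells from small intestine or colon, each sorted as negative or positive for Rspo3-GFP transgene expression. The product of Rspo3 is an R-spondin, which strengthens Wnt signals from outside the cell. All animals had a C57Bl6 background and were 8 to 12 weeks old, with no treatment named in the labels, and all cells were sorted as negative for Epcam and for CD45. The labels do not say how the reporter was made, how many animals a library pooled, or whether replicates came from separate animals, so p-values measure the spread between these samples, which may be technical. Samples sorted on CD31, which the series design also names, were not analysed here.

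Each of these proteins carries a curved array of leucine-rich repeats that binds collagen, and most carry glycosaminoglycan chains. Decorin (Dcn) and biglycan (Bgn) bear chondroitin or dermatan sulfate, while lumican (Lum), fibromodulin (Fmod) and osteoadherin (Omd) can bear keratan sulfate. As a class they set the width and spacing of collagen fibrils, hold growth factors such as transforming growth factor beta in the matrix, and in soluble form bind cell surface receptors. In the gut wall they are mainly products of fibroblasts and related mesenchymal cells.

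The libraries held 6489835 to 12286054 counts. Levels are given as CPM, counts scaled to library size with the TMM factors of edgeR, which compares a gene between libraries but not genes with each other. Rspo3 itself, which checks the sort, measured 4.5 to 13.7 CPM in small intestinal GFP-negative, 191 to 196 CPM in small intestinal GFP-positive, 2.28 to 6.51 CPM in colonic GFP-negative and 117 to 161 CPM in colonic GFP-positive libraries. Of 12 fibroblast markers, which include Col1a1, Col1a2 and Col3a1, the summed level was 7420 to 22000 CPM in small intestinal GFP-negative and 33700 to 51600 CPM in GFP-positive libraries. In the colon it was 24000 to 26300 CPM in GFP-negative and 17000 to 21400 CPM in GFP-positive libraries. Col3a1, Col1a1 and Col1a2 lead this sum, with 20700 to 22600 CPM and 13100 to 17400 CPM in these colonic groups, so it mainly follows collagen. Small intestinal GFP-negative replicate 2 stood apart with the 22000 CPM, against 7420 and 8760 CPM in replicates 1 and 3. Small intestinal GFP-negative replicate 3 held 9430 CPM of 8 leukocyte markers against 154 and 177 CPM in the other replicates of its group, with 304 CPM of Ptprc, the gene of CD45. Epcam was not at 0 in 11 of the 12 libraries and reached 182 CPM in colonic GFP-negative and 170 CPM in colonic GFP-positive cells. In bulk samples such as these, fewer cells of a type and less RNA per cell cannot be told apart.

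In the small intestine 5 of the 9 genes rose in the GFP-positive cells and none fell. The 5 were Dcn, Lum, Ogn, Omd and Prelp, and their fitted log2 differences ran from 1.64 to 4.15. A gene is said to rise or fall where edgeR's quasi-likelihood test gave a Benjamini-Hochberg adjusted p under 0.05 over all 16757 genes. Of all genes tested in this comparison, 10.9% were called, 4.24% as higher and 6.63% as lower. An unadjusted p under 0.05 was found for 6 of the 9 genes and for 23.6% of all genes. The median log2 difference of the 9 genes was 1.64, and that of all genes was -0.03. Of the 12 fibroblast markers, none of them a member, 9 rose in the same comparison, with a median of 1.60, and their part in the result was not tested. In 6 of the 9 genes every GFP-positive library lay above every GFP-negative library, as it did in 9.56% of all genes, while 21.9% did not overlap in either direction.

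Decorin, the proteoglycan that coats type I collagen fibrils, was the most abundant member. In the small intestine Dcn measured 1110, 2830 and 1300 CPM in replicates 1 to 3 of the GFP-negative cells. The GFP-positive cells gave 7020, 6890 and 10900 CPM. The lowest GFP-positive library lay well above the highest GFP-negative library, which was replicate 2. The rise was 4.74-fold, or 2.24 ± 0.36 on the log2 scale (SE, n = 3 per group, edgeR adjusted p = 0.00177).

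Lumican, a keratan sulfate carrier that binds fibrillar collagen, showed the larger fold change of these neighbours on chromosome 10. Lum measured 95.6, 268 and 144 CPM without GFP and 939, 879 and 1550 CPM with GFP, replicates 1 to 3 in order. The groups did not overlap, and the highest values of both genes were again in GFP-negative replicate 2 and GFP-positive replicate 3. Lum rose by 2.73 ± 0.37 on the log2 scale, a 6.63-fold change (edgeR adjusted p = 6.69e-04).

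Osteoglycin, also called mimecan, is a small member that takes part in collagen fibril assembly. Its transcript Ogn was at 84, 122 and 89.7 CPM in GFP-negative cells, against 341, 219 and 516 CPM in the GFP-positive ones. The GFP-positive libraries were all higher but spread more widely than the GFP-negative ones. Its rise was 1.86 ± 0.30 (edgeR adjusted p = 0.00177).

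PRELP, a member with a basic, heparin-binding end that is found next to basement membranes, was at 170, 455 and 161 CPM in GFP-negative cells, against 689, 1200 and 572 CPM in GFP-positive cells. The groups did not overlap, though GFP-negative replicate 2 lay close to GFP-positive replicate 3. Prelp rose by 1.64 ± 0.39 (edgeR adjusted p = 0.0175), and the call was lost without GFP-negative replicate 1 (0.0626), GFP-negative replicate 3 (0.0533) or GFP-positive replicate 2 (0.0766), and when only the small intestinal libraries were fitted (0.105). Among the GFP-positive libraries Prelp was highest in replicate 2 and lowest in replicate 3, the library with the highest fibroblast marker sum. The summed level of 7 lymphatic endothelium markers, led by Mmrn1, Ccl21a and Reln, had the same order as Prelp in these libraries, at 11200, 15000 and 4300 CPM in replicates 1 to 3, against 200 to 589 CPM in the GFP-negative libraries. Of the 7 markers 6 rose and none was without counts in any group. Their part in the result was not tested.

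Osteoadherin is best known from bone, and Omd was near the limit of detection. It had 3, 0 and 2 counts in the GFP-negative libraries of the small intestine, against 74, 16 and 39 counts in the GFP-positive ones. These correspond to 0.361, 0 and 0.322 CPM against 6.16, 1.58 and 4.61 CPM. Omd rose by 4.15 ± 0.95 (edgeR adjusted p = 0.0138), but this value rests on 5 counts in the GFP-negative group. The call was lost when only the small intestinal libraries were fitted (adjusted p = 0.079) and on the deposited log2(TPM + 1) values with limma (adjusted p = 0.133).

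The other 4 genes were not called in the small intestine. Podocan, which binds type I collagen, measured 45.3, 138 and 61.9 CPM (Podn) against 141, 141 and 214 CPM with GFP, a log2 difference of 1.01 ± 0.34 (edgeR adjusted p = 0.0819) that DESeq2 called (0.99, adjusted p = 0.0303). Biglycan, which carries glycosaminoglycan chains and as a free protein binds Toll-like receptors, measured 684, 1510 and 659 CPM (Bgn) against 1000, 973 and 1580 CPM. Its groups overlapped, with GFP-negative replicate 2 near the highest GFP-positive library, and the difference was 0.32 ± 0.31. Asporin, which binds collagen and transforming growth factor beta, differed by 0.11 ± 0.32 (Aspn), with 68.3 to 161 CPM against 91.1 to 178 CPM with GFP. Fibromodulin, a collagen cross-linking modulator of tendon, was scarce at 0.591 to 9.65 CPM (Fmod) over the 6 libraries and differed by 0.64 ± 0.96. Without GFP-negative replicate 2, the collagen-rich library, 7 of the 9 genes were called as higher, with Bgn at 0.83 ± 0.22 (edgeR adjusted p = 0.0271) and Podn at 1.64 ± 0.25 (edgeR adjusted p = 0.0013) added, while the calls over all genes went from 1821 to 2644. Without the leukocyte-bearing replicate 3 the count was 4, while over all genes it went from 1821 to 1567.

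**Figure D1:**
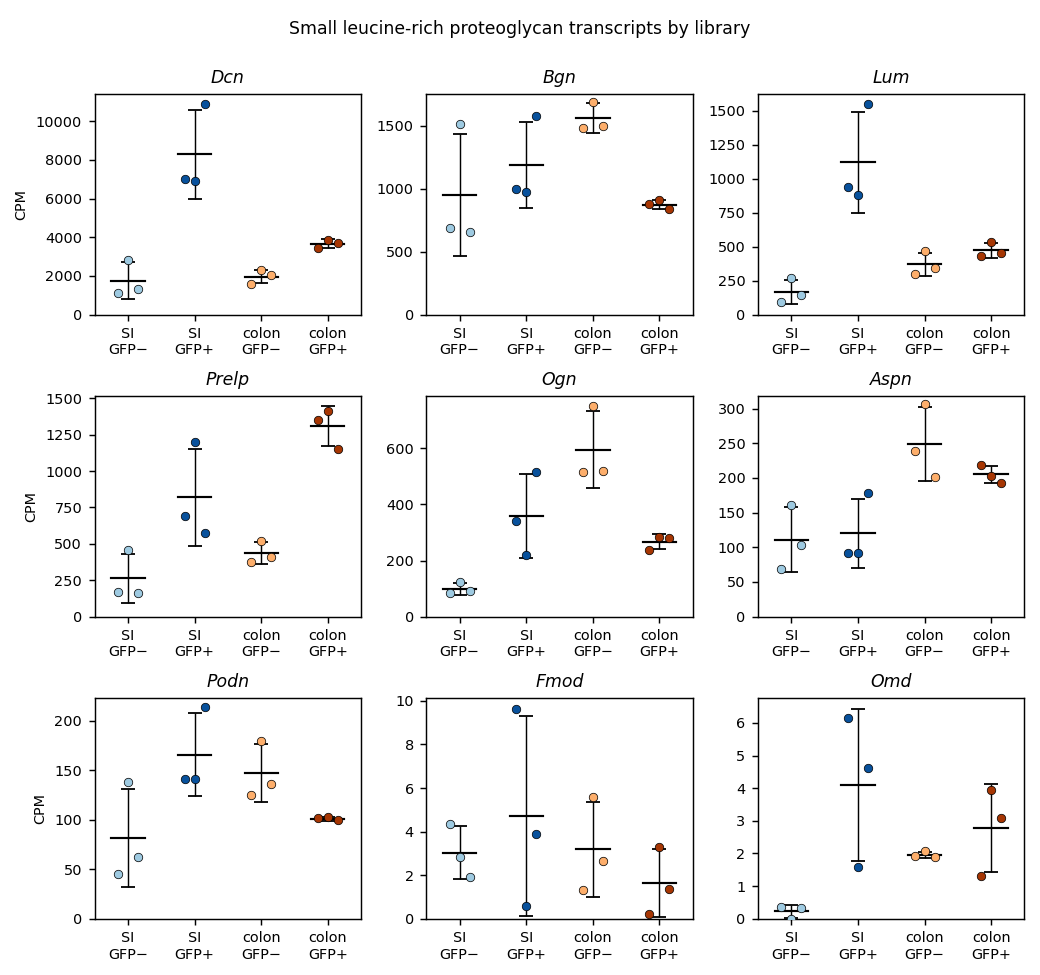
Level of each of the 9 genes in CPM (vertical axis, linear from 0, a scale per panel) in the 4 groups of sorted cells (horizontal axis), with points for the 3 libraries, a line at the mean and whiskers for the SD. Dcn, Lum and Ogn separate the small intestinal GFP-positive from the GFP-negative libraries, Ogn lies lower in colonic GFP-positive than in colonic GFP-negative cells, and Prelp lies higher in both tissues.

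In the colon the family did not move as a block. Prelp rose, Ogn fell, and 7 genes were not called. Of all genes, 8.69% were called in this comparison, 4.62% as higher and 4.06% as lower. An unadjusted p under 0.05 was found for 4 of the 9 genes and for 19.5% of all genes. The median log2 difference of the 9 genes was -0.28 (all genes, -0.03). Of the 12 fibroblast markers 2 rose and 1 fell (median 0.23), and their part in the result was not tested. In 2 genes, Dcn and Prelp, every GFP-positive library was above every GFP-negative library, and in 3, Bgn, Ogn and Podn, every one was below, so 5 of 9 did not overlap. Over all genes 35.6% did not overlap, 17.8% in each direction.

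Prelp stood at 373, 521 and 411 CPM in colonic GFP-negative cells, against 1350, 1410 and 1150 CPM in the GFP-positive cells. The GFP-positive libraries lay close together and far above the others. The rise was 1.59 ± 0.39, or 3.00-fold (edgeR adjusted p = 0.0232), and the difference from the small intestinal effect was -0.06 ± 0.54 (edgeR adjusted p = 0.988). Summed lymphatic endothelium markers were 18000 to 21000 CPM in these GFP-positive and 205 to 335 CPM in the GFP-negative libraries. Over replicates 1 to 3 the sums had the order of Prelp with GFP (19000, 21000 and 18000 CPM) but not without GFP (335, 272 and 205 CPM). In this comparison 6 of the 7 markers were called as higher and none was at 0. Their part in the rise of Prelp was not tested.

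Ogn went the other way, with 517, 753 and 519 CPM in colonic GFP-negative cells, against 236, 285 and 280 CPM in the GFP-positive cells. The 2 groups did not overlap. Ogn fell by 1.16 ± 0.29 on the log2 scale (edgeR adjusted p = 0.0239). Both colonic calls were made in 7 of the 12 fits that left out a library, and the highest adjusted p of those fits was 0.126 for Ogn, without colonic GFP-negative replicate 2, and 0.109 for Prelp, without colonic GFP-negative replicate 1. Without colonic GFP-negative replicate 2, colonic GFP-negative replicate 3, colonic GFP-positive replicate 1 or colonic GFP-positive replicate 2, 0 of the 9 genes were called in the colon. Over all genes those fits called 871, 911, 884 and 816, against 1456 in the main fit. On the deposited log2(TPM + 1) values with limma, Ogn was at -1.19 (adjusted p = 0.066). Markers of telocytes and other subepithelial fibroblasts, led by Bmp5, F3 and Bmp3, summed to 1030 to 1100 CPM in colonic GFP-negative and 75.0 to 124 CPM in colonic GFP-positive libraries. All 8 of them fell and none was at 0. In the small intestine, where Ogn rose, 1 of the 8 fell and 0 rose (median -1.29). Their sums there were 217 to 322 CPM without GFP and 92.4 to 230 CPM with GFP. The part of these cells in the values of Ogn was not tested in either tissue.

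In the colon Dcn reached 1590, 2300 and 2030 CPM without GFP, against 3440, 3870 and 3710 CPM with GFP. The groups did not overlap, but the difference of 0.90 ± 0.34 was not called (edgeR adjusted p = 0.152). Bgn was the converse, with 1480, 1690 and 1500 CPM against 875, 906 and 838 CPM with GFP and a difference of -0.83 ± 0.31 (edgeR adjusted p = 0.14). Dcn and Bgn were both called, as higher and as lower, by DESeq2 (adjusted p = 0.0443 and 0.0355). They were also called when only the colonic libraries were fitted (edgeR adjusted p = 0.00153 and 2.46e-04) and without small intestinal GFP-negative replicate 2 (edgeR adjusted p = 0.0222 and 0.0177). Over all genes these fits called 2089, 3016 and 1660 in the order given, against 1456 in the main fit.

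Colonic Lum stood at 302, 466 and 346 CPM without GFP, against 429, 536 and 452 CPM with GFP, and these groups overlapped (0.35 ± 0.34). Podn lay at 125 to 180 CPM against 99.3 to 103 CPM with GFP, a difference of -0.54 ± 0.34. Aspn, at 202 to 306 and 193 to 218 CPM, differed by -0.28 ± 0.32. Fmod and Omd stayed below 6 CPM in all 6 colonic libraries and neither was called.

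**Figure D2:**
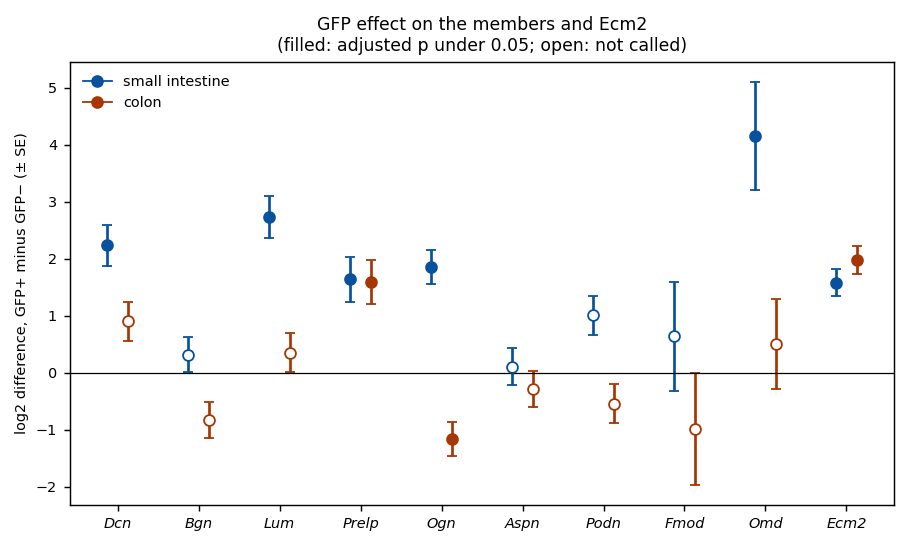
Fitted log2 difference between GFP-positive and GFP-negative cells (vertical axis, points, with SE as whiskers) for the 9 genes and their relative Ecm2 in the small intestine (blue) and the colon (brown); filled points passed an adjusted p of 0.05. Prelp and Ecm2 are filled and positive in both tissues, while Ogn is filled on opposite sides of 0, at 1.86 and -1.16.

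The GFP effects themselves differed between tissues for 2 of the 9 genes, tested as an interaction (effect in the colon minus effect in the small intestine). Of all genes, 2.06% were called in this test, 1.16% as higher and 0.895% as lower. An unadjusted p under 0.05 was found for 6 of the 9 genes and for 14.5% of all genes. For Ogn the difference of effects was -3.02 ± 0.41 on the log2 scale (edgeR adjusted p = 0.00468), and it was called in each of the 12 fits without a library. For Lum it was -2.38 ± 0.49 (edgeR adjusted p = 0.0297), a call made in 4 of those 12 fits (without small intestinal GFP-negative replicate 2 or 3, small intestinal GFP-positive replicate 2 or colonic GFP-negative replicate 1), with a highest adjusted p of 0.0956 without colonic GFP-negative replicate 2. The remaining values ran from -3.65 (Omd, SE 1.22) to -0.06 (Prelp), below 0 for all 9 genes, with a median of -1.55 against 0.04 for all genes. Of the 12 fibroblast markers 3 were called as lower in this test (median -1.16), 0 without small intestinal GFP-negative replicate 3 and 9 without replicate 2. Their part in the result was not tested. These values share the small intestinal GFP-negative libraries, so their common sign is not independent between genes. Without the collagen-rich small intestinal GFP-negative replicate 2, 5 genes were called as lower (Dcn, Lum, Bgn, Ogn and Podn), while the calls over all genes went from 345 to 1044.

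The same libraries, compared between tissues, showed where the difference for Ogn lay. Within GFP-negative cells Ogn was 6.05-fold higher in the colon than in the small intestine, a rise of 2.60 ± 0.30 (edgeR adjusted p = 0.00124), with the lowest colonic library at 517 CPM and the highest small intestinal one at 122 CPM. Of the 8 telocyte and subepithelial fibroblast markers 4 rose in this comparison (median 2.00), with sums of 217 to 322 CPM in the small intestine against 1030 to 1100 CPM in the colon. In the interaction 3 of them had a lower effect in the colon (median -3.00), and their part in the values of Ogn was not tested. Ogn was the only one of the 9 genes called between tissues without GFP, where 4.21% of all genes were called, 2.20% as higher and 2.01% as lower. An unadjusted p under 0.05 was found for 6 of the 9 and for 18.2% of all genes. Aspn (1.17 ± 0.33, edgeR adjusted p = 0.0671) and Lum (1.13 ± 0.35, edgeR adjusted p = 0.0923) did not pass, although 4 of the 9 genes (Lum, Ogn, Omd and Aspn) had colonic values all above the small intestinal ones, as 11.5% of all genes did. Over all genes 22.6% did not overlap in either direction. Without small intestinal GFP-negative replicate 2 the count called was 6 (Lum, Bgn, Ogn, Prelp, Aspn and Podn), while over all genes it went from 706 to 1229.

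Within GFP-positive cells 0 of the 9 genes were called between tissues by edgeR, where 4.57% of all genes were, 2.75% as higher and 1.81% as lower. An unadjusted p under 0.05 was found for 3 of the 9 and for 16.3% of all genes. DESeq2 called 2, Dcn and Lum, both as lower in the colon (adjusted p = 0.00507 for each). By edgeR, Dcn differed by -1.17 ± 0.34 (adjusted p = 0.0827) and Lum by -1.25 ± 0.35 (adjusted p = 0.0663). The colonic values lay below all small intestinal ones for Dcn, Lum, Bgn and Podn and above them for Aspn, while over all genes 24.7% did not overlap, 11.8% below and 12.9% above. Dcn and Lum were also called without small intestinal GFP-negative replicate 2, with edgeR adjusted p = 0.00843 and 0.0138. Over all genes DESeq2 called 1390 and the fit without that replicate 1017, against 765 in the main fit.

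Levels between genes were compared per transcript length, as TPM rescaled to the protein-coding genes, which hold only 4.65% to 8.09% of the deposited TPM. On this scale Dcn led in every group, at 2830 ± 1410, 11500 ± 4340, 3310 ± 757 and 4970 ± 69.8 TPM (SD, n = 3) in small intestinal GFP-negative and GFP-positive and colonic GFP-negative and GFP-positive cells, and its range overlapped that of no other member. Bgn came next in all but the colonic GFP-positive cells, where Prelp at 1430 ± 186 TPM stood above Bgn at 690 ± 23.7 TPM with no overlap. In small intestinal GFP-positive cells Bgn, Prelp and Lum, at 896, 837 and 833 TPM, overlapped in range and could not be ordered. In GFP-negative cells of the small intestine the ranges of neighbours from Prelp down to Ogn overlapped (299 to 76.0 TPM), and in colonic GFP-negative cells those from Prelp down to Podn did (527 to 177 TPM). In colonic GFP-positive cells Lum (367 TPM) stood clear below Bgn, Ogn (197 TPM) and Aspn (168 TPM) overlapped, and Podn (96.2 TPM) stood apart. Fmod and Omd were the lowest in every group, from 0.322 to 7.38 TPM.

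The 9 genes together made up 0.312%, 0.681% and 0.308% of protein-coding TPM in small intestinal GFP-negative replicates 1 to 3 and 1.22%, 1.15% and 2.03% in the GFP-positive ones. In the colon the sums were 0.520%, 0.778% and 0.635% in GFP-negative and 0.789%, 0.817% and 0.771% in GFP-positive libraries. The small intestinal groups did not overlap, whereas the highest colonic GFP-negative library lay above the lowest GFP-positive one.

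The mixture within this total also differed by group. Dcn made up 63.7% to 66.0% of the family total in small intestinal GFP-negative and 75.9% to 81.5% in GFP-positive cells, and 48.3% to 53.8% against 61.3% to 65.0% in the colon. Bgn took 17.6% to 19.7% against 5.82% to 6.67% in the small intestine and 20.0% to 24.1% against 8.61% to 8.85% in the colon. In both tissues the share of Dcn was thus higher and that of Bgn lower in all 3 GFP-positive libraries than in any GFP-negative library, and the shares of small intestinal GFP-negative replicate 2 (65.4% Dcn and 18.3% Bgn) lay within its group's range. Prelp took 15.8% to 19.3% in colonic GFP-positive cells against 3.10% to 10.1% elsewhere. Ogn took 6.70% to 8.25% in colonic GFP-negative cells and at most 2.69% elsewhere. Shares sum to a whole, so a higher share of Dcn lowers the others, and no test was made on them.

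**Figure D3:**
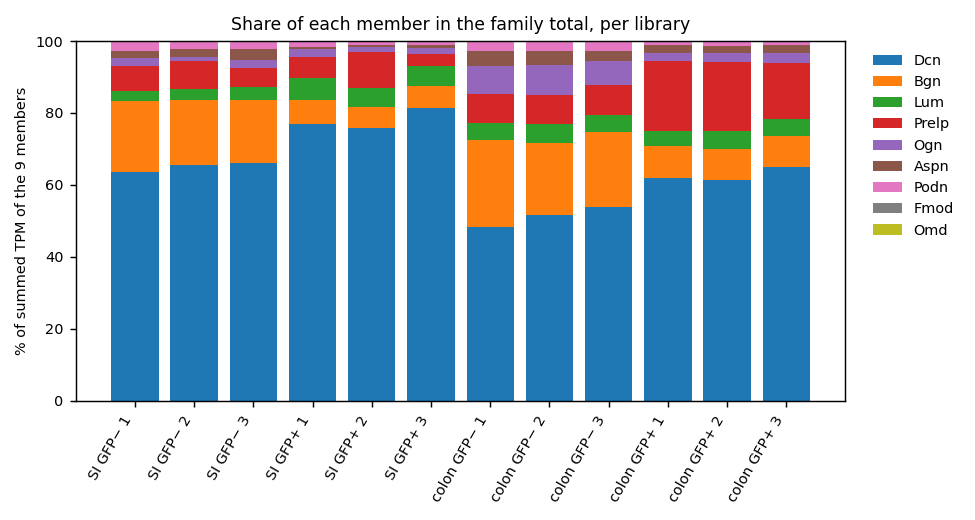
Percent of the summed TPM of the 9 genes (vertical axis) taken by each gene (colours) in each of the 12 libraries (horizontal axis, in the order of groups and replicates). The band of Bgn is 17.6% to 24.1% of the total without GFP and 5.82% to 8.85% with GFP, and the band of Prelp is widest in colonic GFP-positive libraries.

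Because these proteins decorate collagen fibrils, each gene was also set against the summed CPM of Col1a1, Col1a2 and Col3a1 in the same library, a scaling chosen after the data had been seen and given with no test. The collagen sum was 5940, 18200 and 7040 CPM in the small intestine without GFP, against 29100, 32600 and 44100 CPM with GFP. In the colon it was 20700 to 22600 CPM in GFP-negative and 13100 to 17400 CPM in GFP-positive libraries. On this scale small intestinal Lum stood at 1.61, 1.47 and 2.04 CPM per 100 collagen CPM without GFP, against 3.23, 2.70 and 3.51 with GFP. In the colon Lum was at 1.38, 2.06 and 1.67 against 2.77, 3.09 and 3.46. The small intestinal and colonic values of Lum thus fell in like ranges, and the log2 differences were 0.89 and 0.88, where without this scaling they were 2.73 and 0.35.

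Dcn per 100 collagen CPM was 15.6 to 18.6 in the small intestine without GFP and 21.2 to 24.7 with GFP. The colonic values were 7.25 to 10.1 without GFP and 22.2 to 28.4 with GFP. Prelp overlapped between the small intestinal groups (2.29 to 2.86 and 1.30 to 3.67) but was 1.70 to 2.30 in colonic GFP-negative and 8.14 to 8.81 in colonic GFP-positive cells. Ogn also overlapped in the small intestine (0.668 to 1.42 and 0.671 to 1.17), so the rises of Ogn and Prelp there turned to log2 differences of -0.13 and -0.18. Ogn still differed between the colonic groups (2.36 to 3.33 against 1.52 to 2.14). Bgn had 8.27 to 11.5 in small intestinal GFP-negative against 2.99 to 3.58 in GFP-positive cells. Aspn had 0.885 to 1.46 against 0.280 to 0.403, and Podn 0.759 to 0.879 against 0.433 to 0.486. These 3 genes, none of them called on the CPM scale, lay lower in all small intestinal GFP-positive libraries relative to collagen.

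**Figure D4:**
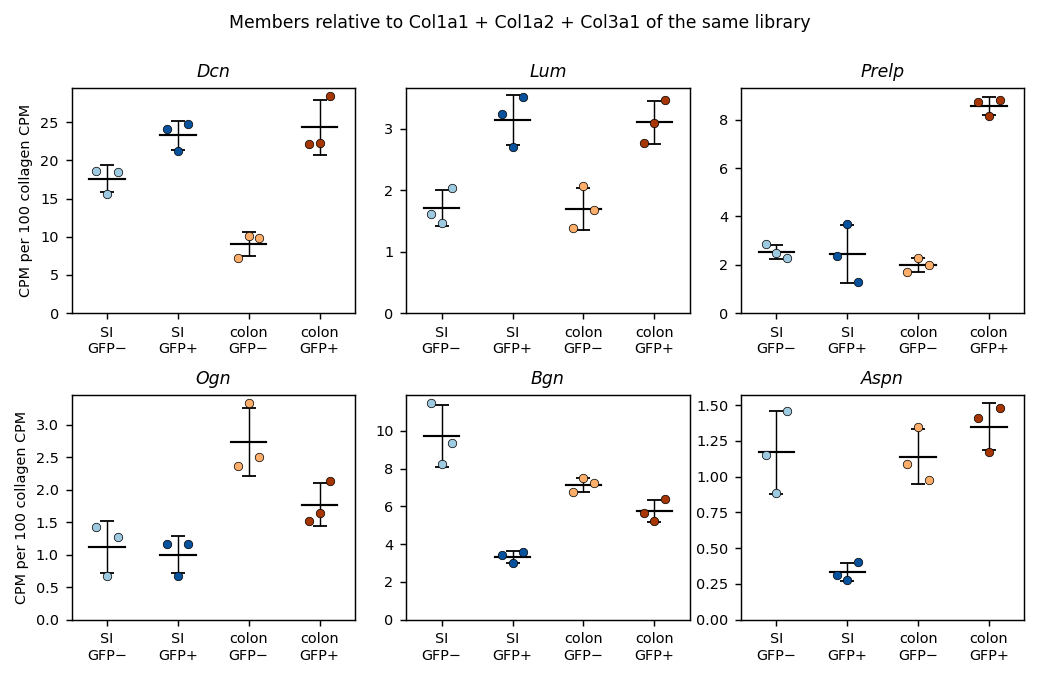
CPM of 6 members per 100 CPM of Col1a1, Col1a2 and Col3a1 summed in the same library (vertical axis, linear from 0) in the 4 groups (horizontal axis), with points for libraries, lines at means and whiskers for the SD (n = 3). Lum has means of 1.71 and 1.70 in the GFP-negative and 3.14 and 3.10 in the GFP-positive groups, and Aspn has its lowest values in small intestinal GFP-positive cells.

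Another 9 genes of the family were read alongside. Ecm2, a leucine-rich repeat matrix protein encoded next to Aspn, rose in both tissues. Small intestinal values were 84.9, 94.6 and 60.9 CPM without GFP, against 227, 210 and 282 CPM with GFP, a rise of 1.58 ± 0.24 (edgeR adjusted p = 0.00157). In the colon it measured 67.9, 106 and 59.3 CPM against 312, 334 and 279 CPM, a rise of 1.98 ± 0.25 (edgeR adjusted p = 4.6e-04). Both differences were far larger than the spread between libraries, and the tissue difference of 0.41 ± 0.34 was not called. Epyc (epiphycan, a cartilage member) rose in the small intestine by 4.04 ± 1.17 (edgeR adjusted p = 0.0435), on 7 counts in the GFP-negative group and 152 in the GFP-positive group. That call was lost without GFP-negative replicate 2 (adjusted p = 0.0869) or replicate 3 (0.0992).

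Opticin (Optc, at most 3.54 CPM), chondroadherin-like (Chadl, at most 9.86 CPM), tsukushi (Tsku, 6.27 to 27.4 CPM) and podocan-like 1 (Podnl1) were not called in any comparison. Podnl1 had no count in the 3 colonic GFP-positive libraries, where 3 counts over the group would be 0.117 CPM, a limit that covers counting error only, against 0.457 to 1.39 CPM in colonic GFP-negative cells. Keratocan (Kera), chondroadherin (Chad) and nyctalopin (Nyx) did not pass the filter on low counts, and Kera had 1 count over all libraries together.

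The family genes lie in groups of neighbours. On chromosome 10 (GRCm38) Dcn (97479609 to 97518143), Lum (97565128 to 97572703), Kera and Epyc span 203 kb. On chromosome 13 Ecm2 (49504810 to 49532789), Aspn (49544443 to 49567565), Omd (49582462 to 49592822) and Ogn (49608046 to 49624501) span 120 kb. On chromosome 1 Optc, Prelp (133910304 to 133921414, minus strand) and Fmod (134037254 to 134048277) span 151 kb. GENCODE M21 places no other protein-coding gene inside any of these spans. Bgn lies on chromosome X (73483602 to 73495933) and Podn on chromosome 4 (108014791 to 108096445, minus strand).

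Neighbours differed in their response. On chromosome 10 Dcn, Lum and Epyc all rose in the small intestine and none was called in the colon. The difference between the tissues was itself called for Lum but not for Dcn or Epyc (edgeR adjusted p = 0.203 and 0.663). On chromosome 13 Ecm2 rose in both tissues, Aspn was called in neither, Omd rose in the small intestine on few counts, and Ogn rose in the small intestine and fell in the colon, although all 4 lie on the plus strand. On chromosome 1 Prelp rose in both tissues, while its neighbours Optc and Fmod were called in neither.

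**Figure D5:**
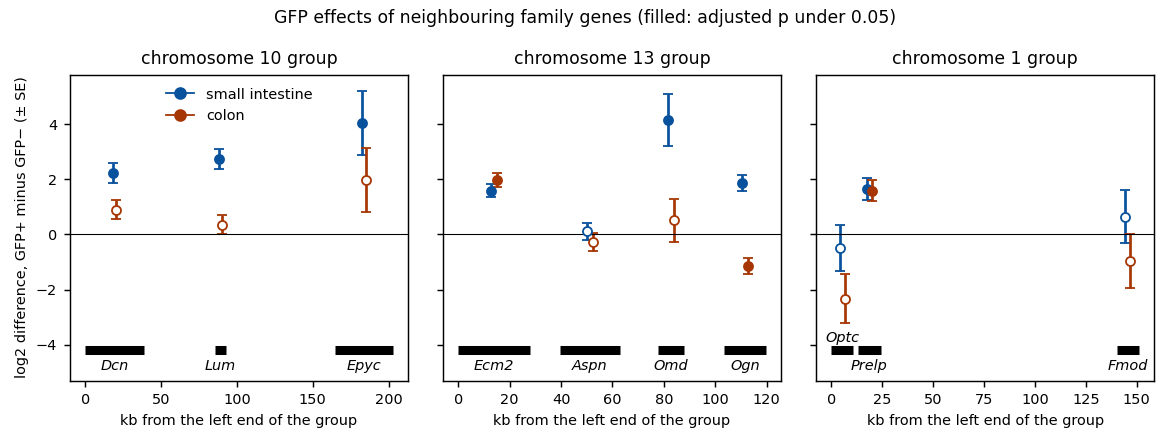
Fitted log2 GFP effect (vertical axis, points, with SE as whiskers) of family genes in 3 groups of neighbours against distance in kb from the left end of the group (horizontal axis), in the small intestine (blue) and the colon (brown); black bars show gene spans and filled points passed an adjusted p of 0.05. In the chromosome 13 group Ecm2 is positive in both tissues, Aspn is near 0 and Ogn is at 1.86 and -1.16.

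The upstream sequences of the 3 chromosome 13 neighbours with different responses, and of Prelp, are shown because the same libraries separate them. Each is the 250 bases before the RefSeq start on GRCm38.p6, 5′ to 3′ on the gene's strand, at chr13:49504560-49504809 for Ecm2, chr13:49544193-49544442 for Aspn, chr13:49607765-49608014 for Ogn (plus strand) and chr1:133921402-133921651 for Prelp (minus strand). The RefSeq start of Ogn lies slightly upstream of the GENCODE start given above. Capitals mark matches on either strand to the motifs named after the sequences.
Ecm2: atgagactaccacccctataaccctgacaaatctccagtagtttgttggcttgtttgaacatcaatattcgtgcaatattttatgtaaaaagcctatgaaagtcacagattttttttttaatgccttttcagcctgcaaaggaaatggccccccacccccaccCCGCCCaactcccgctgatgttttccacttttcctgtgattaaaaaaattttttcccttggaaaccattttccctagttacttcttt
Aspn: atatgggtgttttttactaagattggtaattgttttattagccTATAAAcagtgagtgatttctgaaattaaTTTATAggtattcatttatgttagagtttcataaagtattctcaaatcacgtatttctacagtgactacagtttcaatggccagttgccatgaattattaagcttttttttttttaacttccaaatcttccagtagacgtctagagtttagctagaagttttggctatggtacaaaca
Ogn: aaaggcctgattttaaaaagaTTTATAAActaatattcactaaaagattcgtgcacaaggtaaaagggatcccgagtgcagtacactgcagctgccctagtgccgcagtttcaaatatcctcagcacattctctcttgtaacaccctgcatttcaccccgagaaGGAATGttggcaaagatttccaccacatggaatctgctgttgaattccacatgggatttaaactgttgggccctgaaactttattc
Prelp: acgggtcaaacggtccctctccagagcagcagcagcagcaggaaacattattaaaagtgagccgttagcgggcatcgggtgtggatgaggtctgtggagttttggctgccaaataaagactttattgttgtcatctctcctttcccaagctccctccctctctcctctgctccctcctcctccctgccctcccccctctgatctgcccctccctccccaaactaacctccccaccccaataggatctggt

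RefSeq windows were found for 7 of the 9 genes, and 5 motifs were searched on both strands. They were TATAAA of core promoters, GGAATG bound by TEAD factors, GGGCGG bound by Sp factors, TGANTCA bound by AP-1 and GTAAACA bound by forkhead factors, the last pair found in 6.75% and 3.17% of windows. Ecm2 held GGGCGG on the other strand 87 to 82 bases before the start, a motif found in 32.7% of all 32851 windows of this length. Aspn held TATAAA at 207 to 202 bases on the plus strand and at 178 to 173 bases on the other strand, a motif found in 12.4% of windows. Ogn held TATAAA on both strands in an overlapping match 229 to 222 bases before the start, and GGAATG at 86 to 81 bases, a motif found in 12.6% of windows. Prelp held none of the 5. The GC content was 40.0% for Ecm2, 30.0% for Aspn, 42.0% for Ogn and 55.6% for Prelp, against a median of 52.4% over all windows. A match describes letters only, and binding was not measured.

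Genes for the glycosaminoglycan chains of these proteins were read from lists. Of 22 tested genes for chain linkage and chondroitin or dermatan sulfate synthesis, 4 rose and 1 fell in the small intestine, and 1 rose and 4 fell in the colon. Their median log2 differences were 0.21 and -0.24 (all genes, -0.03 in both). Dse, the epimerase that makes dermatan sulfate, rose by 0.90 ± 0.21 in the small intestine, from 42.0 to 78.3 CPM (edgeR adjusted p = 0.0174), and the sulfotransferase Chst15 rose by 1.08 ± 0.24 (adjusted p = 0.0128). In the colon the chondroitin synthase Chsy3 fell by 3.13 ± 0.41, from 62.4 to 7.08 CPM (edgeR adjusted p = 5.91e-04), and the sulfotransferase Chst11 fell by 1.45 ± 0.21 (adjusted p = 0.00114). Without the leukocyte-bearing small intestinal replicate 3, 1 gene of this list was called in the small intestine and Dse was not (adjusted p = 0.0565), and without the collagen-rich replicate 2, 8 were. Over all genes the calls there were 1567 and 2644 in these fits, against 1821 in the main fit. Of 6 tested keratan sulfate genes, 1 rose in the small intestine (B4galt1, 0.69 ± 0.18, edgeR adjusted p = 0.0274), a call lost without GFP-negative replicate 3 (0.0847). In the colon B3gnt2 rose by 1.04 ± 0.28 and Chst2 fell by 1.98 ± 0.38 (edgeR adjusted p = 0.0353 and 0.0054).

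Of 14 tested fibrillar and fibril-associated collagens, 6 rose and 2 fell in the small intestine, 1 rose and 1 fell in the colon, and 4 had a lower effect in the colon (Col5a2, Col5a3, Col1a2 and Col3a1). Without small intestinal GFP-negative replicate 3 the interaction called 2 collagens, 1 as higher and 1 as lower, and without replicate 2 it called 11, 10 of them as lower. The colonic count was 4 and 6 in these fits. Over all genes these fits called 414 and 1044 in the interaction, against 345 in the main fit. In the colon they called 1773 and 1660, against 1456. Col14a1, a fibril-associated collagen that binds Dcn, rose in both tissues, from 764 to 3480 CPM (2.19 ± 0.28, edgeR adjusted p = 5.53e-04) and from 710 to 1970 CPM (1.47 ± 0.27, adjusted p = 0.0043). Col12a1 fell in both, by 2.07 ± 0.37 and 2.27 ± 0.37 (edgeR adjusted p = 0.00355 and 0.00222). Of 16 genes for collagen cross-linking and propeptide processing, 6 rose and none fell in the small intestine, and 2 rose and 3 fell in the colon.

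Plod2, a lysyl hydroxylase of collagen, rose by 1.53 ± 0.27 in the small intestine and fell by 1.17 ± 0.27 in the colon (edgeR adjusted p = 0.00352 and 0.0155). Its difference of effects was -2.69 ± 0.38 (edgeR adjusted p = 0.00541). Pcolce2, an enhancer of procollagen processing, rose in both tissues, by 3.02 ± 0.26 and 2.27 ± 0.25 (edgeR adjusted p = 8.03e-05 and 2.33e-04). Without small intestinal GFP-negative replicate 2 the counts in the small intestine were 13 collagens and 11 processing genes, and without replicate 3 they were 7 and 5. Over all genes the calls there were 2644 and 1567 in these fits, against 1821 in the main fit.

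Among 18 receptors and ligands that these proteins bind, 3 rose and 2 fell in the small intestine and 4 rose and 1 fell in the colon, with medians of 0.10 and -0.16. Tgfb3, a ligand held by Dcn, rose in both tissues, by 2.00 ± 0.32 and 1.55 ± 0.32 (edgeR adjusted p = 0.00204 and 0.00876). Met, the receptor of hepatocyte growth factor, fell in the small intestine from 21.2 to 1.97 CPM (edgeR adjusted p = 6.69e-04), and Egfr rose from 74.7 to 209 CPM (adjusted p = 0.00167). In the colon Tgfb1 and Tgfbr2 rose by 1.51 ± 0.30 and 1.09 ± 0.24 (edgeR adjusted p = 0.00705 and 0.0133). Of 23 tested genes of other proteoglycans and hyaluronan synthesis, 2 rose and 5 fell in the small intestine and 4 rose and 8 fell in the colon, with medians of -0.49 and -0.90. Cspg4, a proteoglycan of pericytes, fell in both tissues, by 3.37 ± 0.35 and 1.81 ± 0.33 (edgeR adjusted p = 2.01e-04 and 0.00395), and the glypican Gpc3 rose in the small intestine from 61.9 to 196 CPM (adjusted p = 8.55e-04).

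Markers of other cells in the sort also moved. Of 8 blood endothelium markers 7 fell in the small intestine, and of 10 pericyte and smooth muscle markers 5 fell there and 7 in the colon, the latter summing to 2360 to 3360 CPM in colonic GFP-negative and 492 to 574 CPM in GFP-positive cells. Without small intestinal GFP-negative replicate 2, 2 of these 10 rose and 4 fell in the small intestine. All 6 enteric glia markers fell in the small intestine, as did 4 of them in colonic cells. Epithelium markers summed to 225 to 749 CPM in small intestinal GFP-negative and 12.1 to 17.6 CPM in GFP-positive cells, with 6 of 7 lower, while in the colon none was called. Of the 6 mesothelium markers only 2 passed the filter on low counts. Msln and Lrrn4 had no count in small intestinal GFP-positive cells, but averaged only 0.602 and 0.641 CPM in the GFP-negative ones. In the colon Msln had no count in either group and Lrrn4 none with GFP. The part of these cells in the differences of the 9 genes was not tested.

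Genes with the most similar pattern over the 12 libraries were sought among 7214 genes, by the root-mean-square difference of centred log2 CPM, as a description with no test. The nearest to Dcn was Aebp1, a collagen-binding protein, at 0.14 log2 units, where the own variation of Dcn about its mean was 0.98. Its next neighbours were Rnase4 (0.20) and Col14a1 (0.25). Lum was nearest to Svep1 (0.25), Bgn to the laminin chain gene Lamb1 (0.07), Podn to the procollagen protease gene Adamts2 (0.13), Aspn to Fstl1 (0.20) and Prelp to Gas6 (0.25). Ogn was nearest to Plod2 (0.27), Zfp385a (0.35) and Osr1 (0.40). Osr1, a transcription factor gene, averaged 13.3, 66.1, 98.3 and 27.1 CPM in the 4 groups in the order used above. Fmod and Omd had no close neighbour, the nearest being Banp (0.79) and Abi3bp (0.51). Among the members themselves Bgn and Podn (0.32) and Dcn and Lum (0.35) were the closest pairs, while Aspn and Ogn, neighbours on chromosome 13, were at 0.70. All of these distances share the same 12 libraries.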

How the data were processed

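Total RNA (column extraction, ZapR treatment) was sequenced from 12 libraries of sorted gut stroma. Salmon (version 1.1.0), R (version 3.6.1) and the genome build mm10 are listed, per the submitters' processing notes. The annotation and filters are not given in the sources used here. All values (100%) of the table of estimated counts that the authors deposited are whole, and they were taken as rounded expected counts. The second table, deposited by the authors, holds log2 values, log2(TPM + 1).

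Symbols and positions came from GENCODE M21 (GRCm38, the assembly of mm10) for 32001 of 32052 identifiers. Counts were tested with edgeR 4.0.16 in R 4.3.3 (quasi-likelihood, robust, TMM, filterByExpr with a minimum count of 10), in a single model with a mean for each of the 4 groups and 5 contrasts. The SE is the absolute log2 difference divided by the square root of F. DESeq2 1.42.0, limma 3.58.1 on the deposited log2 values, RLE scaling, no filter, only the libraries compared, each library left out and replicate blocks were alternatives. The fit was also run on simulated counts with known changes.

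The members and gene lists were chosen with earlier results of these data known. Members and family genes are named whether called or not. From each pathway list, up to 4 called genes with the smallest adjusted p could be named, and otherwise up to 2 with the highest level. From marker lists, the 3 highest genes and those at 0 could be. The genes most like a member are the 3 nearest among well expressed genes, whose log2 CPM averaged 4 or more, leaving out gene models named only Gm or Rik.

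Whether replicate numbers pair the samples was checked by correlating deviations from group means over genes. In the small intestine same-numbered samples had r = 0.323, 0.179 and 0.166, and in the colon 0.009, 0.047 and 0.09. By the rule used (every pair over 0.1), only the small intestinal samples passed as paired. Between tissues same-numbered samples had r = 0.098, 0.028 and 0.223 without GFP, and 0.02, 0.05 and 0.054 with GFP. The 0.223 belongs to replicate 3. A low r cannot exclude pairing, so samples that share a number may not be independent. Per the file headers, the names of same-numbered GFP-negative and GFP-positive columns begin alike in each tissue, and replicate 3 has the same prefix in both tissues. The sources used here do not say what a number or prefix marks. Promoter sequences are from RefSeq (GRCm38.p6).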

Additional observations from a re-analysis of the deposited data

Results flagged for a closer look

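The GFP effects in the small intestine and the colon differed for 2 of the 9 genes by the interaction test of edgeR. For Ogn the effect in the colon minus that in the small intestine was -3.02 ± 0.41 on the log2 scale (SE, n = 3 per group, adjusted p = 0.00468), with a rise in the small intestine and a fall in the colon. For Lum it was -2.38 ± 0.49 (adjusted p = 0.0297), with a rise in the small intestine and no call in the colon. Relative to summed interstitial collagen the effects on Lum were 0.89 and 0.88, and those on Ogn were -0.13 and -0.63, with no test.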

How the results depend on the processing

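Dcn, Lum and Ogn were called in the small intestine in each of the 12 fits without a library and under all 7 other planned settings, and so was the higher Ogn of colonic GFP-negative cells in its 12 and 6. With only the libraries compared, 3 members were called in the small intestine, 5 in the colon and 2 within GFP-positive cells. limma on log2(TPM + 1) called 1 in the colon and 6 within GFP-negative cells. DESeq2 called 6 in the small intestine (Podn added), 4 in the colon, 5 in the interaction, 2 between tissues with GFP and 4 without. With no filter the counts between tissues were 2 and 2. Leaving out a library gave 4 to 7 members in the small intestine, 0 to 4 in the colon, 1 to 5 in the interaction, and 0 to 2 and 1 to 6 in the comparisons of tissues with and without GFP. Fits without a library hold fewer samples, and the cause of these changes was not tested.

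With the replicate block over all libraries, Podn was added in the small intestine (adjusted p = 0.0405), Lum was the 1 call within GFP-positive cells (0.0346) and Lum and Ogn were the 2 within GFP-negative cells (Lum 0.0435). Over all genes this fit called 1946, 853 and 944 in these comparisons, against 1821, 765 and 706 in the main fit. The replicate block within tissue, which fits a pairing by number within each tissue, changed no member's call in either tissue or in the interaction.

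Reversed signs were seen for values that were not called, whose full ranges without a library were -0.28 to 0.50 (Aspn) and -0.44 to 1.16 (Fmod) in the small intestine, -0.73 to 0.32 (Prelp) in the interaction, and -0.04 to 0.72 (Dcn) and -0.56 to 0.50 (Fmod) within GFP-negative cells. Aspn in the small intestine was -0.14 without GFP-negative replicate 1 and -0.28 without GFP-positive replicate 3, and Fmod there was -0.44 without GFP-positive replicate 1. The interaction of Prelp was 0.18, 0.19 and 0.32 without small intestinal GFP-negative replicates 1 and 3 and GFP-positive replicate 2, and 0.10 and 0.02 without colonic GFP-negative replicate 2 and GFP-positive replicate 3. Within GFP-positive cells Bgn and Ogn were 0.03 and 0.07 with limma, whose scale moved the median of all genes by 0.15 there and 0.25 within GFP-negative cells. Within GFP-negative cells Dcn was -0.04 without small intestinal replicate 1, and Fmod -0.15 and -0.56 without small intestinal replicate 3 and colonic replicate 2. Of called values, Ogn and Prelp in the small intestine were -0.13 and -0.18 per summed collagen, a scaling added after the data were seen.

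Over all genes, the calls in the small intestine were 1821, against 850 with only the libraries compared, 671 with limma and 2695 with DESeq2. Without a library they were 1239 to 2644. In the colon they were 1456, against 3016 with only the libraries compared, 1154 with limma and 2089 with DESeq2. Without a library the colonic calls were 816 to 1773 (lowest without colonic GFP-positive replicate 2). In the interaction they were 345, against 535 with the replicate block, 160 with limma and 1088 with DESeq2, and 69 to 1044 without a library. Within GFP-positive cells they were 765, against 812 with no filter, 962 with only the libraries compared, 376 with limma and 1390 with DESeq2. Leaving out a library gave 416 to 1050 there. Within GFP-negative cells they were 706, against 755 with no filter, 406 with only the libraries compared, 1509 with limma and 1635 with DESeq2. Leaving out a library gave 187 to 1229 there. The share of Dcn in the family total is the same on both TPM scales by construction and tests nothing, while the order of Bgn, Prelp and Lum in small intestinal GFP-positive cells differed between them. Depth limits Omd, Fmod and Epyc, which had 5 to 155 counts per group.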
